A study of Mus musculus with 14 samples.

Results

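The genes described here are those whose symbol begins with Clec, the naming root for proteins with a C-type lectin domain, without the Clec2 genes, which encode ligands of natural killer cell receptors. They were found among the array probes annotated to exactly 1 gene, and 24 such genes were present, each with 1 probe, of 22180 genes in all. Clec9a, a receptor of dendritic cells for dead cells, is not among the 24, because the only probe that carries its symbol also carries that of Clec1b. The arrays measured RNA from bone marrow cells sorted as Sca1-positive and Kit-negative from female NCR-NU mice, nude mice that lack a thymus. The 4 groups were old tumor-bearing (3 mice), young tumor-bearing (3 mice), old cancer-free (5 mice) and young cancer-free (3 mice), with 1 array per biological replicate. Cancer-free hosts carried a Matrigel implant as the control, and the primary tumors were matched in size between ages. The tumor cells and the ages in weeks are not given in the sources used here. Because each array holds a sorted population of mixed cells, fewer cells of a type and less RNA per cell cannot be told apart.

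C-type lectin receptors are surface proteins through which myeloid cells bind sugars of microbes and molecules released by dying cells. Activating members signal through the kinase Syk, either from a motif in their own tail or through the adaptors Fcer1g and Tyrobp, and reach NF-kappaB by way of Card9, Bcl10 and Malt1. Inhibitory members recruit phosphatases such as Ptpn6 and Ptpn11. Some proteins with a Clec name are not receptors of this kind: Clec3b and Clec11a are secreted, and Clec16a is an intracellular regulator of autophagy and mitophagy.

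In the RefSeq table for GRCm38.p6, 16 of the 24 genes lie on chromosome 6. The Dectin-2 and Dcir cluster there runs in the order Clec4a1, Clec4a3, Clec4a4, Clec4b1, Clec4a2, Clec4b2, Clec4n, Clec4d and Clec4e. The Dectin-1 cluster runs as Clec12a, Clec12b, Clec1b, Clec9a, Clec1a and Clec7a. Of the 9 neighbours in the Dectin-2 and Dcir cluster, only Clec4a1 and Clec4a3, which lie side by side, passed the filter on dim genes in these arrays, and they had the largest age differences among the Clec genes. Their promoter windows, from 250 bases before to 50 bases after an annotated start, are therefore shown. The Clec4a1 window is chr6:122921598-122921897 and the Clec4a3 window, at the downstream of its 2 annotated starts, is chr6:122952394-122952693, both on the plus strand of GRCm38.p6 as RefSeq gives them. Capitals mark the stretch of each that aligned best with the other.
Clec4a1: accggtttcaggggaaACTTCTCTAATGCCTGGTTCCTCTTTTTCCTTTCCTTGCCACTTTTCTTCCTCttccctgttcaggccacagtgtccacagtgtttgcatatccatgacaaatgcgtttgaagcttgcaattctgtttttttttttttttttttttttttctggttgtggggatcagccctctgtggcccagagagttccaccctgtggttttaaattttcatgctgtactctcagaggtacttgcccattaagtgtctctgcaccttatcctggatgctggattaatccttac
Clec4a3: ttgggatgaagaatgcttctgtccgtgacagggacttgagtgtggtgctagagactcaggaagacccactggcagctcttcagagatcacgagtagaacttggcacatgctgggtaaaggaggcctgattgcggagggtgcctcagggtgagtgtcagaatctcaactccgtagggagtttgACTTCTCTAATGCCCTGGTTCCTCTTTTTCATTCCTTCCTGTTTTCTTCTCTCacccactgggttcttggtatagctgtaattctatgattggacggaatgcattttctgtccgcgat
The aligned stretch spans 55 columns, of which 48 hold identical bases, 3 hold mismatches and 4 hold gaps. It lies from base -234 to -182 of the Clec4a1 start and from base -68 to -16 of the Clec4a3 start. Promoter windows were given for 18 of the 24 genes, and among the 188 pairs of windows from different Clec genes this local alignment ranked 2nd by score, after that of Clec4b1 with Clec4b2. Within the shared stretch the Clec4a1 window holds the composite element of ETS and IRF factors (GGAA, any 2 bases, then GAAA) on the minus strand, starting at base -209, and the Clec4a3 window does not. Both strands were searched for this element, and it was in 2.72% of all 32851 promoter windows. Among the Clec genes Clec7a also held it, at base -66 on the minus strand of its first listed window, apart from any TATAAA match there. TTGCNNAA, a C/EBP-type element present in 10.8% of all windows, was found in the promoters of Clec12a, Clec11a, Clec16a and Clec4e. GAGGAAGT, a PU.1-type element present in 3.2% of all windows, was in 0 of the 20 Clec windows. These matches describe the letters of the reference sequence.

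Most Clec genes were near background in these cells. All levels are log2 RMA values, so a difference of 1 is a factor of 2. A gene was tested when it lay above the median of the whole table (3.88) on at least 3 arrays, the size of the smallest groups, and 9 of the 24 Clec genes passed, as did 13805 of all 22180 genes. The other 15 had means of 1.92 to 3.44 over the 14 arrays, and 12 of them were not above the table median on any array. A second yardstick was the level of 1105 olfactory receptor genes, a class used mainly in the nose, whose median was 2.06 and whose 95th percentile was 4.15. By that yardstick 18 Clec genes were near background, and 6 were above it.

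Several activating receptors of myeloid cells were among the dim genes, although Clec7a was not. Clec4e (Mincle) had a mean of 3.35, Clec4n (Dectin-2) 2.96, Clec4d 2.68 and Clec5a, which couples to Tyrobp, 3.03. Clec4e, Clec5a and Clec4a2 (Dcir1, an inhibitory receptor) were each above the table median on 2 arrays, and no other dim gene was above it on any array. The highest value of a dim gene was 4.83, for Clec5a in old cancer-free replicate 1. Clec4a4 (1.92), Clec4b1 (1.94), Clec4b2 (2.47), Clec12b (2.31) and Clec1a (3.12) were dim as well. So was Clec1b (2.08), the podoplanin receptor of platelets. Of the 6 platelet and megakaryocyte markers with a probe, 3 were dim (Pf4, Ppbp and Gp6) and 3 passed the filter. Those that passed were Itga2b, Gp9 and Treml1, with means of 4.05, 4.34 and 4.13. The endothelial Clec14a had a mean of 2.52, and of 9 endothelial markers 5 passed the filter while Tek, Emcn, Esam and Stab2 did not. The secreted Clec3a, Clec3b and Clec11a had means of 3.03, 3.38 and 3.42.

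The brightest Clec gene was Clec12a, an inhibitory receptor of myeloid cells, with a mean of 6.85 over the 14 arrays, brighter than 87.7% of genes. Clec4a3 (Dcir3) followed at 5.88, Clec16a at 5.80, Clec7a (Dectin-1, the beta-glucan receptor) at 4.67, Clec4a1 (Dcir4) at 4.38 and Clec18a, a secreted protein, at 4.19. Probes differ in brightness for technical reasons, so this order is one of probe signals and not of transcript numbers. Clec4f (3.99), a receptor of Kupffer cells in the liver, Clec4g (3.52), known from liver and lymph node endothelium, and Clec10a (3.41), the galactose-binding receptor Mgl1, passed the filter but stayed under the 95th percentile of olfactory receptor genes. Clec4g and Clec10a passed on 3 arrays each.

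**Figure D1:**
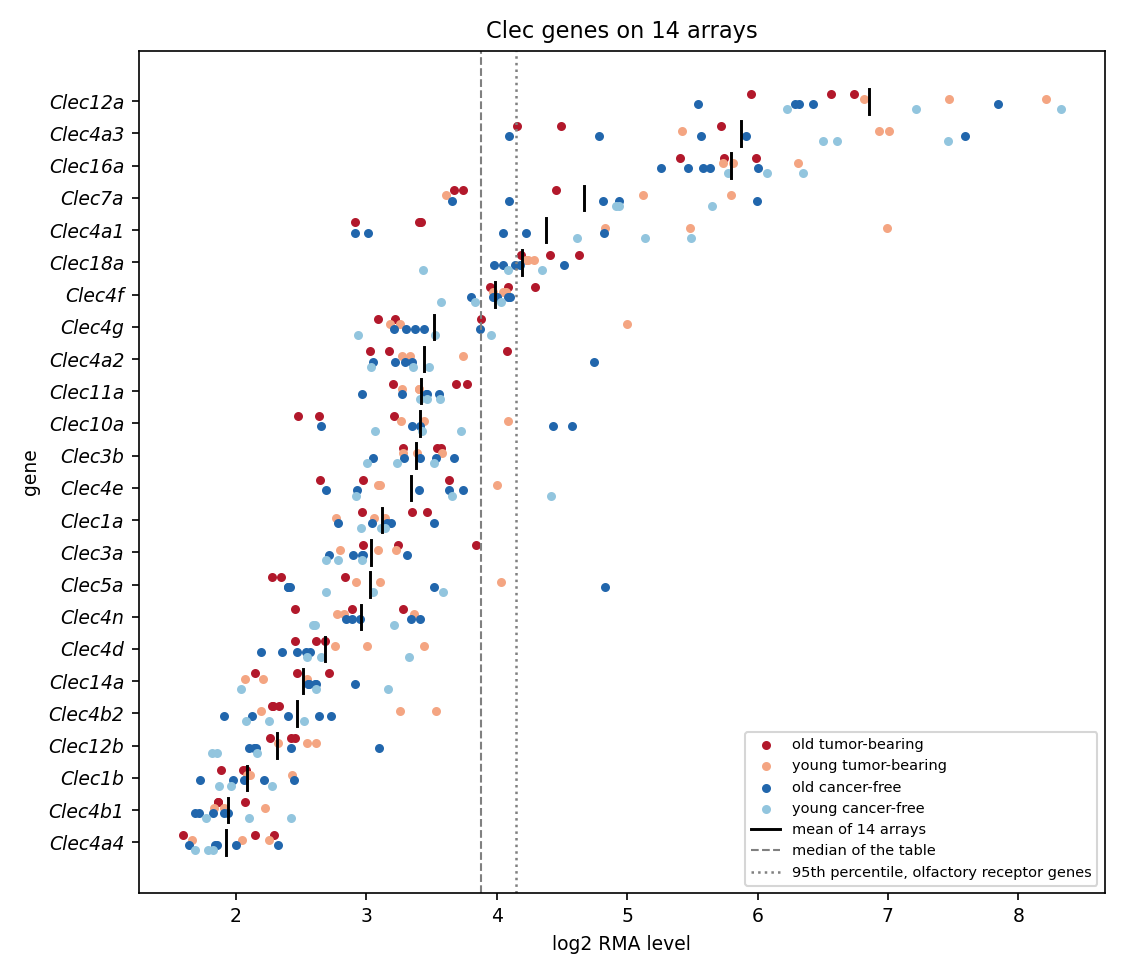
Each point is the log2 RMA level (x axis) of a Clec gene (y axis, ordered by mean) on 1 array, coloured by group, and the black bar is the mean of the 14 arrays. The dashed line is the table median of 3.88 and the dotted line the 95th percentile of olfactory receptor genes at 4.15, and 6 genes have means to the right of both.

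The arrays themselves were alike in scale, with medians of 3.81 to 3.93. The mean correlation of an array with the other 13, over tested genes, lay between 0.899 and 0.942 and was lowest for young tumor-bearing replicate 1 and old tumor-bearing replicate 3. Ptprc, the pan-leukocyte antigen CD45, was at 10.53 to 11.36 on all arrays. Kit, the receptor whose absence defined the sort, was at 5.25 to 7.03, above the table median on each array. Ly6a, which encodes Sca1, was not analysed here. The sorted cells carried RNA of several lineages, with list means of 6.75 to 8.60 for 8 T cell markers and of 5.59 to 6.75 for 12 monocyte and macrophage markers.

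The first comparison was between old and young hosts, averaged over tumor-bearing and cancer-free mice. Clec4a1, Clec4a3 and Clec12a had the lowest differences, at -1.90 ± 0.36, -1.47 ± 0.49 and -0.93 ± 0.38 (log2, old minus young, ± SE). In limma 0 of the 9 tested Clec genes were called at an adjusted p under 0.05, where 0.0869% of all tested genes were called. At an unadjusted p under 0.05, 4 were lower in old mice (Clec4a1, Clec4a3, Clec12a and Clec16a) and 0 were higher, where 8.97% of all tested genes were lower and 4.44% higher at that level. The median difference of the 9 was -0.36, beside -0.01 over all tested genes. A gene that passed the filter only through its bright groups had to differ between groups, so these counts over tested members are a description.

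Clec4a1 encodes Dcir4, a Dcir family receptor. It was at 2.92, 3.40 and 3.42 in old tumor-bearing mice, against 7.0, 5.48 and 4.83 in young tumor-bearing mice. It was at 4.22, 3.01, 4.82, 2.92 and 4.05 in old cancer-free mice, against 5.49, 4.62 and 5.14 in young cancer-free mice. The 6 young arrays were all above the table median, whereas the old tumor-bearing arrays were all below it and the old cancer-free arrays lay on either side. Of the 8 old arrays 1, old cancer-free replicate 3, was above the lowest young array, young cancer-free replicate 2. The average age difference of -1.90 ± 0.36, a level 0.268-fold that of young mice, had an adjusted p = 0.0601 in limma, with a 95% interval of -2.68 to -1.12. Since several old arrays were at background, the difference is not an exact size. By p-value Clec4a1 ranked 30th among the 13805 genes tested.

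The age difference of Clec4a1 was -2.52 ± 0.54 in tumor-bearing mice (adjusted p = 0.182 in limma) and -1.28 ± 0.48 in cancer-free mice (adjusted p = 0.598 in limma). Groups did not overlap in the tumor-bearing comparison. The difference between these age effects was -1.25 ± 0.73 (adjusted p = 0.976 in limma), so the age effects were not shown to differ between tumor-bearing and cancer-free mice. With the arrays centred on their medians or with array weights, Clec4a1 passed the threshold for the average age difference (adjusted p = 0.0432 and 0.0413 in limma), and over all alternatives its adjusted p was between 0.0413 and 0.167.

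Clec4a3 encodes Dcir3, the product of the neighbouring gene. It was at 4.50, 4.16 and 5.72 in old tumor-bearing mice, against 5.42, 7.01 and 6.93 in young tumor-bearing mice. It was at 7.59, 5.57, 4.09, 4.79 and 5.91 in old cancer-free mice, against 6.51, 6.61 and 7.46 in young cancer-free mice. Old cancer-free replicate 1 had the highest value of all 14 arrays while the other 4 old cancer-free arrays lay below all 3 young cancer-free arrays, so the groups overlapped in both settings. The average age difference of -1.47 ± 0.49 had an adjusted p = 0.226 in limma. It was -1.66 ± 0.72 in tumor-bearing and -1.27 ± 0.65 in cancer-free mice. The array with the highest Clec4a1, young tumor-bearing replicate 1, had the lowest Clec4a3 of the 6 young arrays.

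Clec12a, which carries an inhibitory motif in its tail, was at 6.74, 6.56 and 5.95 in old tumor-bearing mice, against 7.47, 6.82 and 8.21 in young tumor-bearing mice. It was at 7.84, 6.29, 6.43, 5.54 and 6.31 in old cancer-free mice, against 7.22, 6.23 and 8.33 in young cancer-free mice. The tumor-bearing groups did not overlap, and the cancer-free groups did, with old cancer-free replicate 1 again the highest of its group. The average age difference was -0.93 ± 0.38, 0.526-fold, with an adjusted p = 0.316 in limma.

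Clec7a, whose own tail recruits Syk, was at 3.68, 3.74 and 4.45 in old tumor-bearing mice, against 3.61, 5.12 and 5.80 in young tumor-bearing mice. It was at 6.0, 4.94, 4.10, 3.66 and 4.82 in old cancer-free mice, against 4.93, 4.92 and 5.65 in young cancer-free mice. The groups overlapped in both settings, and the lowest array of all was a young one, young tumor-bearing replicate 1. The average age difference of -0.68 ± 0.38 had an adjusted p = 0.474 in limma, and its 95% interval of -1.50 to 0.15 included 0.

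**Figure D2:**
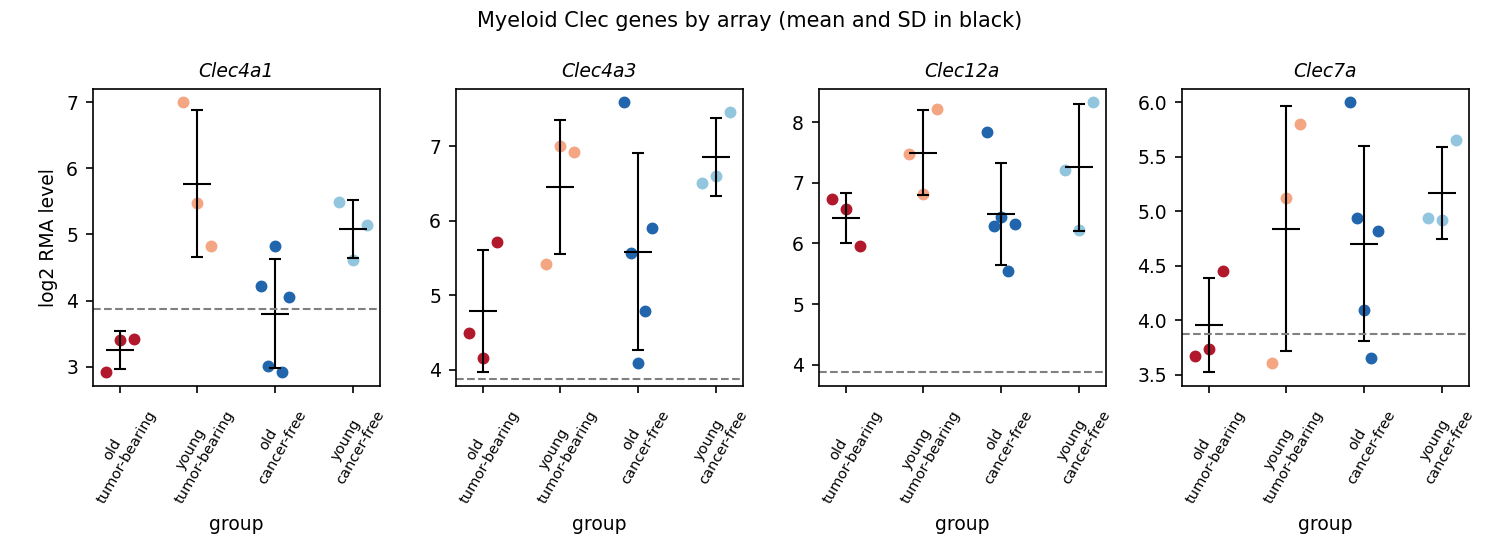
Log2 RMA level (y axis, a separate scale in each panel) of Clec4a1, Clec4a3, Clec12a and Clec7a by group (x axis), with 1 point per array, the mean and SD in black and the table median of 3.88 as a dashed line. All 3 old tumor-bearing arrays lie under that line for Clec4a1, where the young tumor-bearing arrays are at 4.83 to 7.0.

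Clec16a had a smaller difference with less spread. It was at 5.99, 5.41 and 5.75 in old tumor-bearing mice, against 5.81, 5.74 and 6.31 in young tumor-bearing mice. It was at 5.26, 5.47, 5.63, 6.0 and 5.58 in old cancer-free mice, against 6.07, 6.35 and 5.77 in young cancer-free mice. Both pairs of groups overlapped. The difference was -0.36 ± 0.16 on average, -0.24 ± 0.24 in tumor-bearing mice and -0.47 ± 0.22 in cancer-free mice, with adjusted p = 0.361, 0.795 and 0.650 in limma, in that order. Clec18a and Clec4f had average age differences of 0.19 ± 0.15 and 0.13 ± 0.12, with 95% intervals of -0.15 to 0.52 and -0.12 to 0.38. Clec4g was at -0.23 ± 0.28 and Clec10a at -0.27 ± 0.29.

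Within tumor-bearing mice alone, 0 Clec genes were called for age in limma (0% of all tested genes), and 2, Clec4a1 and Clec4a3, were lower at an unadjusted p under 0.05, a level that 6.35% of all tested genes reached in that direction. Old and young tumor-bearing groups did not overlap for Clec4a1, Clec12a and Clec10a, all lower in old mice, where 7.1% of all tested genes were lower without overlap. The nearest old and young arrays were almost level for Clec12a, at 6.74 and 6.82. They were almost level for Clec10a too, at 3.21 and 3.27, both under the table median. Within cancer-free mice 0 Clec genes were called in limma (0% of all tested genes), and 2, Clec4a1 and Clec16a, were lower at an unadjusted p under 0.05, as were 5.17% of all tested genes.

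**Figure D3:**
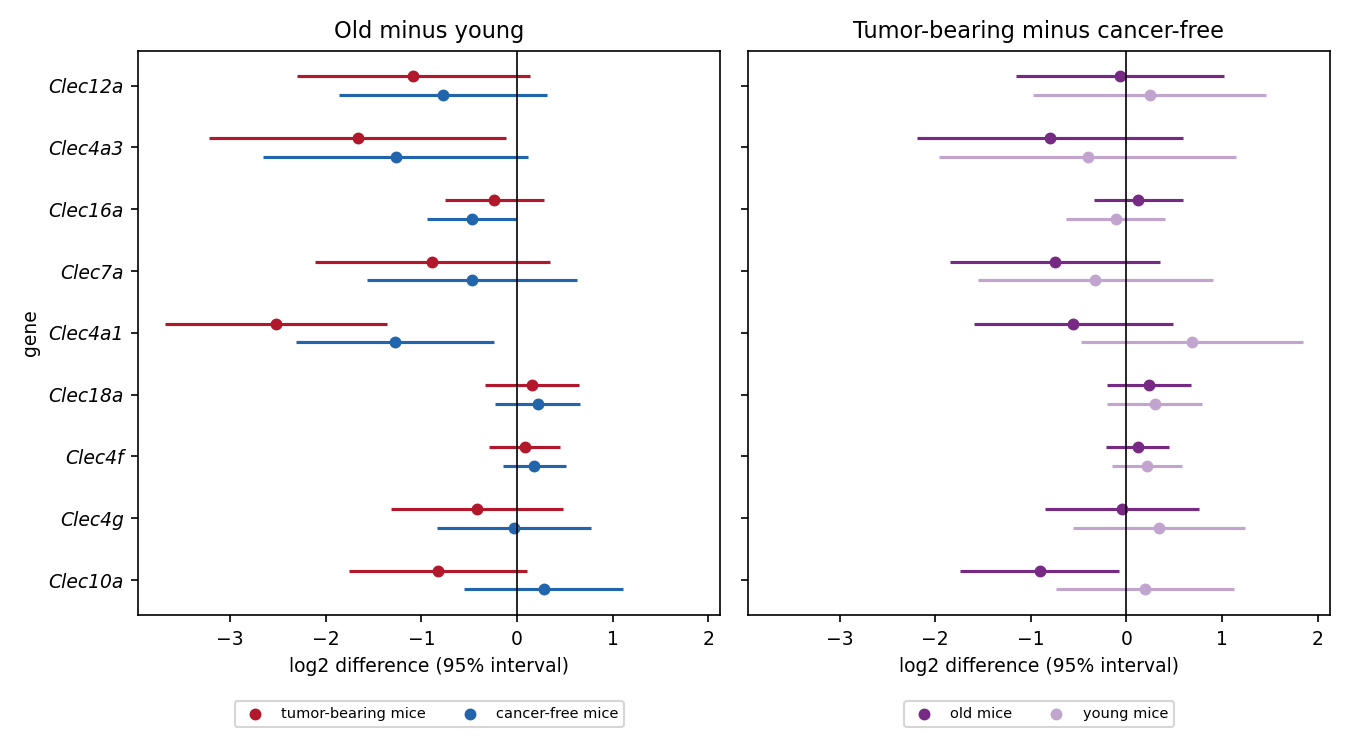
Log2 differences (x axis) with 95% intervals for the 9 tested Clec genes (y axis), old minus young on the left in tumor-bearing and cancer-free mice, and tumor-bearing minus cancer-free on the right in old and young mice. Clec4a1 has the lowest age difference in tumor-bearing mice, at -2.52, and in the right panel Clec10a in old mice is the 1 gene whose interval leaves out 0.

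The second comparison was between tumor-bearing and cancer-free hosts. No tested Clec gene was called in limma, on average over ages, in young mice or in old mice, and 0% of all tested genes were called in each of the 3. At an unadjusted p under 0.05 there were 0 Clec genes on average and in young mice, where 10.2% and 5.4% of all tested genes reached that level, and 1 lower in old mice, where 5.56% of all tested genes were lower. That gene was Clec10a, at 2.47, 3.21 and 2.64 in old tumor-bearing mice, against 4.43, 4.58, 2.65, 3.35 and 3.41 in old cancer-free mice. The groups overlapped, and only old cancer-free replicates 1 and 2 were above the table median. Those replicates were among the 3 arrays through which Clec10a passed the filter, so its count beside all tested genes is a description. The difference was -0.91 ± 0.39 (adjusted p = 0.485 in limma), and with both groups mostly at background it is not an exact size. In young mice Clec10a was at 3.44, 3.27 and 4.09 with tumors, against 3.72, 3.42 and 3.07 without.

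For the 6 brighter genes the 95% intervals of the tumor differences averaged over ages all included 0. The differences were 0.07 ± 0.36 for Clec4a1, 0.09 ± 0.38 for Clec12a, 0.01 ± 0.16 for Clec16a, 0.27 ± 0.15 for Clec18a, -0.60 ± 0.49 for Clec4a3 and -0.54 ± 0.38 for Clec7a. The 95% interval was -0.34 to 0.36 for Clec16a, but it reached from -0.71 to 0.84 for Clec4a1 and from -1.64 to 0.44 for Clec4a3. Changes within those intervals were not excluded. Clec4a1 was at 0.69 ± 0.54 in young mice and -0.56 ± 0.48 in old mice. The test of the difference of tumor effects between ages called 0 of the 9 Clec genes in limma (0% of all tested genes), and 0 reached an unadjusted p under 0.05, where 4.42% of all tested genes did.

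The genes through which these receptors signal were above the filter. Of 18 signalling genes listed, 16 had a probe and all 16 were tested. Between old and young mice 13 were lower and 3 higher, where 52.0% of all tested genes were lower. In limma 0 were called, where 0.0869% of all tested genes were. The median difference was -0.16, beside -0.01 over all tested genes. At an unadjusted p under 0.05, 3 were lower, as were 8.97% of all tested genes. The 3 were the adaptors Fcer1g and Tyrobp and the kinase Syk. Another adaptor of the list, Hcst (DAP10), was at 0.18 ± 0.21.

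Fcer1g, the Fc receptor gamma chain that activating Clec receptors couple to, was at 9.51, 8.62 and 8.75 in old tumor-bearing mice, against 9.52, 9.53 and 10.28 in young tumor-bearing mice. It was at 10.03, 9.04, 9.67, 7.99 and 9.50 in old cancer-free mice, against 9.84, 9.94 and 10.28 in young cancer-free mice. The tumor-bearing groups did not overlap, though the nearest arrays were almost level, and the average age difference was -0.80 ± 0.29 (adjusted p = 0.256 in limma). Tyrobp, the adaptor DAP12, was at -0.64 ± 0.24 (adjusted p = 0.276 in limma) and Syk at -0.59 ± 0.24 (adjusted p = 0.316 in limma). Further down the pathway Card9 was at -0.03 ± 0.13, Bcl10 at -0.17 ± 0.15, Malt1 at 0.15 ± 0.17 and the phosphatase Ptpn6 at -0.10 ± 0.16. Plcg2 was at -0.24 ± 0.24, Vav3 at -0.26 ± 0.26 and the phosphatase Ptpn11 at -0.28 ± 0.24. Card9 was at 3.88 to 4.71 over the 14 arrays. For the tumor comparison averaged over ages, 6 of the 16 signalling genes were higher and 10 lower, where 51.1% of all tested genes were lower. At an unadjusted p under 0.05 in limma 1 was lower, where 10.2% of all tested genes reached that level in either direction. In young mice 1 was higher and 1 lower at that level, which 5.4% of all tested genes reached. The adaptor Hcst (DAP10) was at -0.53 ± 0.21 on average (adjusted p = 0.432 in limma), and Card9 was at 0.44 ± 0.20 in young mice (adjusted p = 0.886 in limma).

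**Figure D4:**
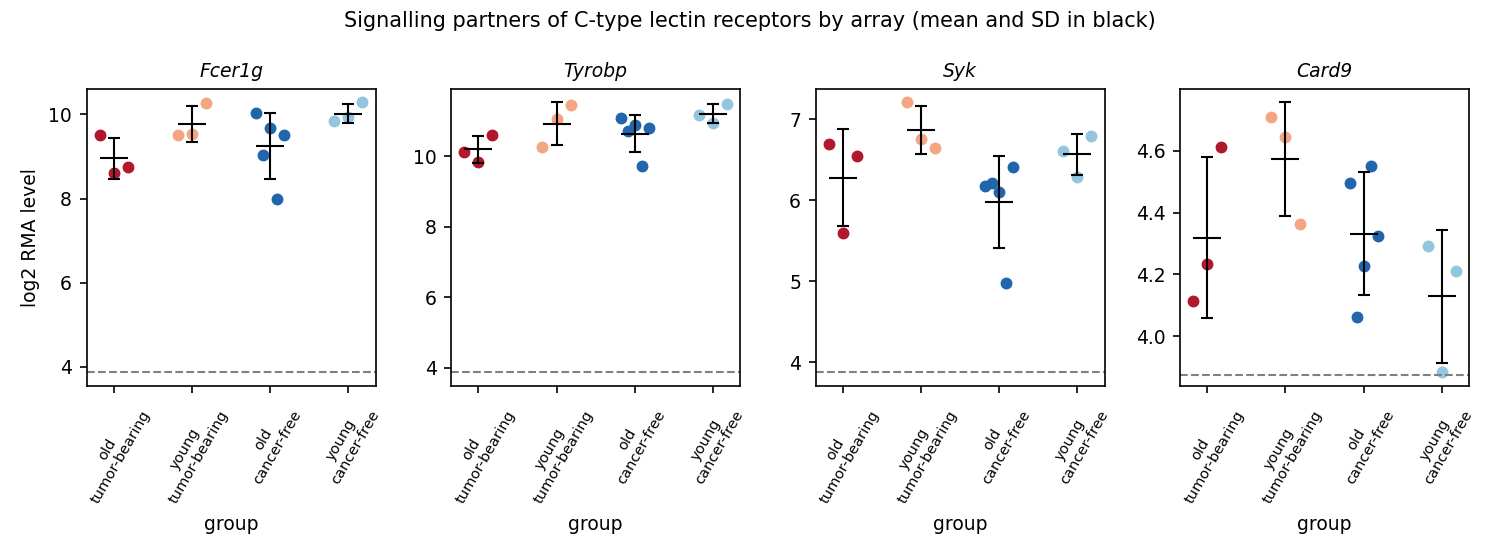
Log2 RMA level (y axis, a separate scale in each panel) of the adaptors Fcer1g and Tyrobp, the kinase Syk and the scaffold Card9 by group (x axis), with 1 point per array, the mean and SD in black and the table median of 3.88 as a dashed line. Fcer1g, Tyrobp and Syk have lower means in the old than in the young group of each pair, by 0.56 to 0.82, and Card9 does not in cancer-free mice.

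C-type lectin genes with other names gave a mixed picture. Of 26 listed, 23 had a probe and 13 were tested, and between old and young mice 9 were lower and 4 higher, with 0 called and 0 at an unadjusted p under 0.05 in limma. Over all tested genes 52.0% were lower and 0.0869% were called, and 8.97% were lower and 4.44% higher at that unadjusted level. The other 10 were dim, among them the macrophage and dendritic cell genes Cd207, Mgl2, Cd209b and Olr1. Cd209a and Cd209c, in contrast, had means of 6.31 and 6.77 and were above the table median on all 14 arrays, and Mrc1, the mannose receptor, had a mean of 4.27 and was above it on 11. Cd209d, a relative of the human receptor DC-SIGN, was at -1.09 ± 0.63 and Ly75 (DEC-205), an endocytic receptor of dendritic cells, at -0.37 ± 0.19 (adjusted p = 0.485 and 0.428 in limma). Thbd, thrombomodulin, had the lowest p of this list for the tumor comparison in old mice. It averaged 6.54 ± 0.47 (SD, n = 3) in old tumor-bearing mice and 5.48 ± 0.55 (SD, n = 5) in old cancer-free mice. The groups did not overlap, but the nearest arrays were almost level, at 6.11 with tumors and 6.09 without. The difference of the averages was 1.06 ± 0.31 (adjusted p = 0.329 in limma).

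Markers of monocytes and macrophages, dendritic cells and neutrophils mostly had negative average age differences too. In limma 0 of them were called, where 0.0869% of all tested genes were. Platelets and endothelium differed, with 3 of 3 platelet and megakaryocyte markers tested positive, and 2 endothelial markers positive and 3 negative. Negative average age differences were not limited to these lists. They were found for 5 of 6 natural killer cell markers and 5 of 6 B cell markers, with 1 positive in each list. At an unadjusted p under 0.05 in limma, 1 natural killer cell marker and 0 B cell markers were lower. Of 12 monocyte and macrophage markers with a probe 10 were tested, and 9 of the 10 had a negative average age difference, 6 of them at an unadjusted p under 0.05, while Ms4a7 and Cd14 were dim. Over all tested genes 52.0% had a negative difference, and 8.97% did so at that level. The list mean was 5.59 to 6.34 in old tumor-bearing mice, against 6.27 to 6.73 in young tumor-bearing mice. It was 5.66 to 6.66 in old cancer-free mice, against 6.17 to 6.75 in young cancer-free mice. Old cancer-free replicate 1, the array with the highest Clec4a3 and Clec7a, had the highest value of its group at 6.66. That position was not particular to the monocyte and macrophage list. The same array was highest of its group in the list means of neutrophils, plasmacytoid and conventional dendritic cells and endothelium. It was lowest of its group in the list mean of T cells, and in between for natural killer cells and B cells.

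All 11 plasmacytoid dendritic cell markers had a negative average age difference, 9 of them at an unadjusted p under 0.05, where 8.97% of all tested genes were lower. Their list mean was 5.91 to 6.56 in old tumor-bearing mice, against 7.23 to 7.93 in young tumor-bearing mice. It was 5.64 to 7.21 in old cancer-free mice, against 6.94 to 8.04 in young cancer-free mice. Of 9 conventional dendritic cell markers tested, with Xcr1 dim, 6 had a negative and 3 a positive average age difference. The list mean was at 5.03 to 5.04 in old tumor-bearing mice, against 5.40 to 5.54 in young tumor-bearing mice. It was at 4.80 to 5.37 in old cancer-free mice, against 5.18 to 5.49 in young cancer-free mice.

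Of 12 neutrophil markers 10 had a negative average age difference, 1 of them at an unadjusted p under 0.05 in limma. Over all tested genes 52.0% had a negative difference, and 8.97% did so at that level. In cancer-free mice 6 of the 12 were lower in old mice and 6 higher. The neutrophil list mean overlapped in cancer-free mice, at 5.44 to 7.5 in old against 6.23 to 6.84 in young. It was 5.74 to 6.24 in old tumor-bearing mice, against 6.24 to 7.58 in young tumor-bearing mice, where young tumor-bearing replicate 1 was highest. That array had the highest Clec4a1 and the lowest Clec7a of all 14. Of 8 T cell markers 7 had a positive average age difference, 5 of them at an unadjusted p under 0.05, where 4.44% of all tested genes were higher. Their list mean was 8.27 to 8.60 in old tumor-bearing mice, against 6.75 to 7.67 in young tumor-bearing mice. It overlapped in cancer-free mice, at 7.56 to 8.57 in old against 7.59 to 8.56 in young, where 0 of the 8 reached an unadjusted p under 0.05 for age in limma. The part of these cell types in the differences of Clec4a1, Clec4a3 and Clec12a was not tested.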

How the data were processed

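The authors deposited log2 values made by RMA, and the submitters' processing notes name oligo 1.32.0 and R 3.2.0. That they are log2 was taken from their range, 0.29 to 13.78. Which arrays were normalised together, filters and the array build are not given in the sources used here. Total RNA was amplified before labelling, per the labels' protocols. Of 41345 probes, 23521 carried 1 symbol, 1814 several and 16010 none. For 23328 of those with 1 symbol the Entrez identifier was found in RefSeq, and the symbol given there was used. This changed 0 Clec symbols. The brightest probe stood for a gene. A model of 4 group means was fitted with limma (version 3.58.1, R 4.3.3; residual degrees of freedom 10, prior 3.86), all 14 arrays together, with 7 two-sided contrasts adjusted by Benjamini and Hochberg at 0.05 within each. The fit was tested on simulated data. Members, lists and tests were chosen with earlier results of these data known. All 24 Clec genes were named, with array values for those at an unadjusted p under 0.05 in a contrast and for Clec7a and Fcer1g, added after their values were seen. From other lists the genes with the smallest p were named, with Cd209d, Ptpn6, Bcl10, Malt1, Plcg2, Vav3 and Ptpn11 added likewise. Promoters are RefSeq's, GRCm38.p6. Precision is limited by the number of arrays. No pairing of arrays by equal replicate number was seen (correlations of deviations -0.08 to 0.09 over 18 pairs). The labels do not say whether such arrays share a source. Arrays of unequal number were not set beside them, so pairing was not excluded.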

Additional observations from a re-analysis of the deposited data

How the results depend on the processing

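The count of called Clec genes for the average age difference was 0 as reported and 1 (Clec4a1) with median centring of each array or with array weights, and it was 0 without each array in turn. It stayed at 0 for the other 6 contrasts under every alternative. Those alternatives were no filter on dim genes, a stricter one, cyclic loess, a variance trend with a robust prior, the mean of probes, a fit to just the 2 groups at issue, a block for replicate number, each array left out and, added after seeing the data, leaving out the 2 least correlated arrays. The differences recomputed under them, those of Clec genes at an unadjusted p under 0.05 as reported, kept their sign wherever the gene was tested, and other differences were not recomputed. Clec4a1 was between -2.13 and -1.59 for the average age difference, and Clec4a3 between -1.96 and -1.28. With the stricter filter Clec4a1 was not among the genes tested. With the replicate block the Clec4a1 difference was -1.79 (adjusted p = 0.119 in limma), 0 Clec genes were called, and the count over all genes for average age was 0 in place of 12. That count was 80 with median centring, 57 with array weights, 43 without the 2 least correlated arrays and 0 to 74 without 1 array. At an unadjusted p under 0.05 the 4 Clec genes for average age became 2 to 5, with 2 under the stricter filter, under cyclic loess and without old tumor-bearing replicate 3 or young tumor-bearing replicate 3. In cancer-free mice the 2 became 0 to 3, and in tumor-bearing mice the 2 became 1 to 4. Clec10a in the tumor comparison of old mice missed that level with array weights, without old tumor-bearing replicate 1, without old tumor-bearing replicate 3 and without the 2 least correlated arrays. It failed the filter on dim genes in the stricter setting, in the fit to its own groups, and when young tumor-bearing replicate 3 or either of old cancer-free replicates 1 and 2 was left out. The causes were not tested. Signal over background limits Clec4a1, Clec10a and Clec4g.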
